A study of Mus musculus with 6 samples.

Results

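The CD3 chains and pre-T cell receptor alpha were followed in thymus RNA of Rag2/pfp knockout and wild-type mice. These 5 genes are Cd3d, Cd3e, Cd3g, Cd247 and Ptcra, chosen with earlier results of these data known. Every probe whose symbol in the platform's annotation is one of them was then taken, with no use of a measured value. The rule found 7 probes among 25697, and 5 genes among the 16593 on the array. Cd247 has 3 probes and the other genes have 1 each, so the Cd247 probes share a target. All 7 probes were detected above background on all 6 arrays, and all 7 passed the filter on dim probes.

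Of the 5 genes, Ptcra passed the test as higher and Cd247 as lower in the knockout (limma adjusted p under 0.05). Ptcra was higher in the knockout by 1.83 on the log2 scale (SE 0.28, n = 3 arrays per genotype), which is 3.55-fold, and Cd247 was lower by 2.78-fold at its brightest probe. Cd3g was 1.67-fold higher with no overlap between the genotypes, a difference that did not pass the threshold after adjustment over all probes. Cd3d and Cd3e differed by −0.12 and −0.21, with overlapping genotypes.

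As background, the CD3 gamma, delta and epsilon chains (Cd3g, Cd3d and Cd3e) form heterodimers that flank the T cell receptor, and the zeta chain (Cd247) joins as a homodimer. Their cytoplasmic ITAM motifs are phosphorylated by Lck and then bind the kinase ZAP-70. Pre-T cell receptor alpha (Ptcra) is an invariant chain that pairs with a newly made beta chain in double-negative thymocytes, the stage before CD4 and CD8 appear. Signals from that pre-receptor carry cells with a productive beta chain to the double-positive stage. Without Rag2 the receptor genes are not joined, and thymocyte development stops at the double-negative stage.

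The knockout group holds 3 thymus samples of genotype Rag2/pfp KO and the comparison group 3 thymus samples of genotype wild type. Rag2 encodes a subunit of the V(D)J recombinase, and pfp stands for Prf1, which encodes perforin, the protein that cytotoxic cells use to open pores in their targets. Both genes are knocked out in the same group, so an effect of the one cannot be told apart from an effect of the other. The sources used here give no age, sex, strain or cell composition, and the same extraction text, which speaks of the Rag2/pfp mouse, stands on the wild-type samples too. The labels do not say whether samples came from separate animals, so p-values cover only the scatter among these samples, part of which may be technical. In bulk RNA of a whole organ, fewer cells of a type and less RNA per cell cannot be told apart.

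Signals were read on 1-colour Illumina MouseRef-8 version 2 arrays, 1 per sample, and 13729 to 13878 probes per array were detected at a detection p under 0.05. The Rag2 probe differed by −1.51 (SE 0.39, adjusted p = 0.0579), and the Prf1 probes by −0.64 (adjusted p = 0.0866) and 0.06 (adjusted p = 0.896). The sources used here do not place these probes inside or outside the deleted parts, so they do not check the labels. Knockout 3 and wild type 2 stood apart by Xist, the transcript of the inactive X chromosome, at 5.02 and 4.90 against 8.80 to 9.40 on the other 4 arrays. Levels below are normalized log2 signals, differences are knockout minus wild type on that scale, and a probe is called at a limma adjusted p under 0.05. The summed signal of a gene list adds the normalized signals of its tested genes on the linear scale, so it is not in deposited units. By this rule 5.48% of the 14097 tested probes were called higher in the knockout and 5.58% lower.

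The stretches just before the starts of the 3 genes whose genotypes did not overlap are shown because E proteins (E2A and HEB), which act on Ptcra and CD3 genes in thymocytes, bind E-box letters of the kind searched here. Each sequence gives the 250 bases before the gene's start as annotated by RefSeq on build GRCm38.p6, 5′ to 3′ on the gene's strand. Capitals mark CAGCTG and CACCTG, the latter also as its reverse complement CAGGTG, while CAGCTG reads the same on both strands, and no copies overlap. The Ptcra stretch lies at chr17:46763713-46763962 on the minus strand, Cd247 at chr1:165788431-165788680 on the plus strand and Cd3g at chr9:44980432-44980681 on the minus strand.
Ptcra: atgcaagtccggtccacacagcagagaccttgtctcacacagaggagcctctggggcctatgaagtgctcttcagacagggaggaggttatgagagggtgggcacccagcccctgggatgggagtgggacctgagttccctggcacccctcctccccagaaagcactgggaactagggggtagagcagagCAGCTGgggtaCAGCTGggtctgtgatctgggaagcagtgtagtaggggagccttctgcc
Cd247: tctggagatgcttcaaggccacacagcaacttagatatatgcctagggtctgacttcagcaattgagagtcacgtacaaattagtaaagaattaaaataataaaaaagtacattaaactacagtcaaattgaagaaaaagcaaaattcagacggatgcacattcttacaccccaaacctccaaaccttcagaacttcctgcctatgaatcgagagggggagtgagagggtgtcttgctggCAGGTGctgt
Cd3g: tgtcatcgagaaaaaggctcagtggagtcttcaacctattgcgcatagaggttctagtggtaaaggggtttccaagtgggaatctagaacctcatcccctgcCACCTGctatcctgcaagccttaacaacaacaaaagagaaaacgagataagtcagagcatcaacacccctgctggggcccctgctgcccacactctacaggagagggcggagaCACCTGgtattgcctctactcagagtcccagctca

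The Ptcra stretch held 2 copies of CAGCTG, beginning 60 and 49 bases before the start, 11 bases apart. Of 32851 RefSeq promoter windows of this length, 13% held CAGCTG, 1.26% held at least 2 copies, 17.2% held CACCTG and 27.7% held either. The Cd247 stretch held 1 copy of CAGGTG, 10 bases before the start, and the Cd3g stretch held CACCTG 148 and 35 bases before it. Cd3d had 1 copy of CACCTG, 112 bases before its start, and Cd3e had neither letter string in this window. The strings TGTGGT and GGAAG, held by 14.0% and 64.1% of the windows, were searched too. TGTGGT was found before no member. GGAAG had 2 copies before Cd3d, 3 before Cd3e, 0 before Cd3g, 1 before Cd247 and 1 before Ptcra. These matches are descriptions of letters, and binding was not measured.

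Cd3e encodes the epsilon chain, the partner in both CD3 heterodimers. Its probe (ILMN_2784580) read 13.87, 13.19 and 14.07 on knockout arrays 1 to 3 and 14.07, 13.65 and 14.06 on wild-type arrays 1 to 3. The deposited linear signals behind these were 15973, 8622 and 16816 units for the knockout, against 17600, 13607 and 17325 units for the wild type. Knockout 1 lay inside the wild-type range, knockout 3 at its top and knockout 2 below it, so the genotypes overlapped. The means were 13.71 ± 0.46 and 13.92 ± 0.24 (SD, n = 3 each), a difference of −0.21 (SE 0.27, limma adjusted p = 0.661). The 95% interval runs from −0.87 to 0.44, or from 0.547-fold to 1.36-fold, and spans 0.

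Cd3d encodes the delta chain, which pairs with epsilon. Its probe (ILMN_2697415) read 14.41, 13.56 and 14.49 on the knockout arrays against 14.43, 13.94 and 14.46 on the wild-type arrays. Knockout 1 and wild type 1 were nearly level, and so were knockout 3 and wild type 3. The difference of −0.12 (SE 0.30, limma adjusted p = 0.832) had an interval of −0.85 to 0.61, which is 0.555-fold to 1.53-fold. Without knockout 2 the sign turned for both genes, to 0.18 for Cd3d and 0.05 for Cd3e, and neither passed.

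Cd3g encodes the gamma chain, the other partner of epsilon. Its probe (ILMN_2722784) gave 15.11, 14.47 and 15.18 on the knockout arrays, compared with 14.32, 13.93 and 14.29 on the wild-type arrays. Every knockout array was above every wild-type array, with a gap of 0.15 between knockout 2 and wild type 1. The linear signals were 36130, 21944 and 37750 units against 20281, 16107 and 20617 units, well under the brightest probe of any array (63880 to 66435 units). The means of 14.92 ± 0.39 and 14.18 ± 0.22 (SD, n = 3 each) differed by 0.74 (SE 0.24, 95% interval 0.15 to 1.33), with a limma p of 0.0211 before and 0.109 after adjustment over all probes. With the replicate number as a block, the same difference had an SE of 0.14 and an adjusted p of 0.0251. Without knockout 2 it was 0.97 (adjusted p = 0.0379), and with knockout 2 and wild type 2 both left out it was 0.84 (adjusted p = 0.0125). Leaving out that pair was chosen after seeing the data. Of the 6 fits that each left out 1 array, only that without knockout 2 passed, with an adjusted p of up to 0.293 otherwise. With the Xist level as a covariate the difference was 0.74 (limma adjusted p = 0.177). With knockout 3 and wild type 2 left out it was 0.49 (0.229).

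**Figure D1:**
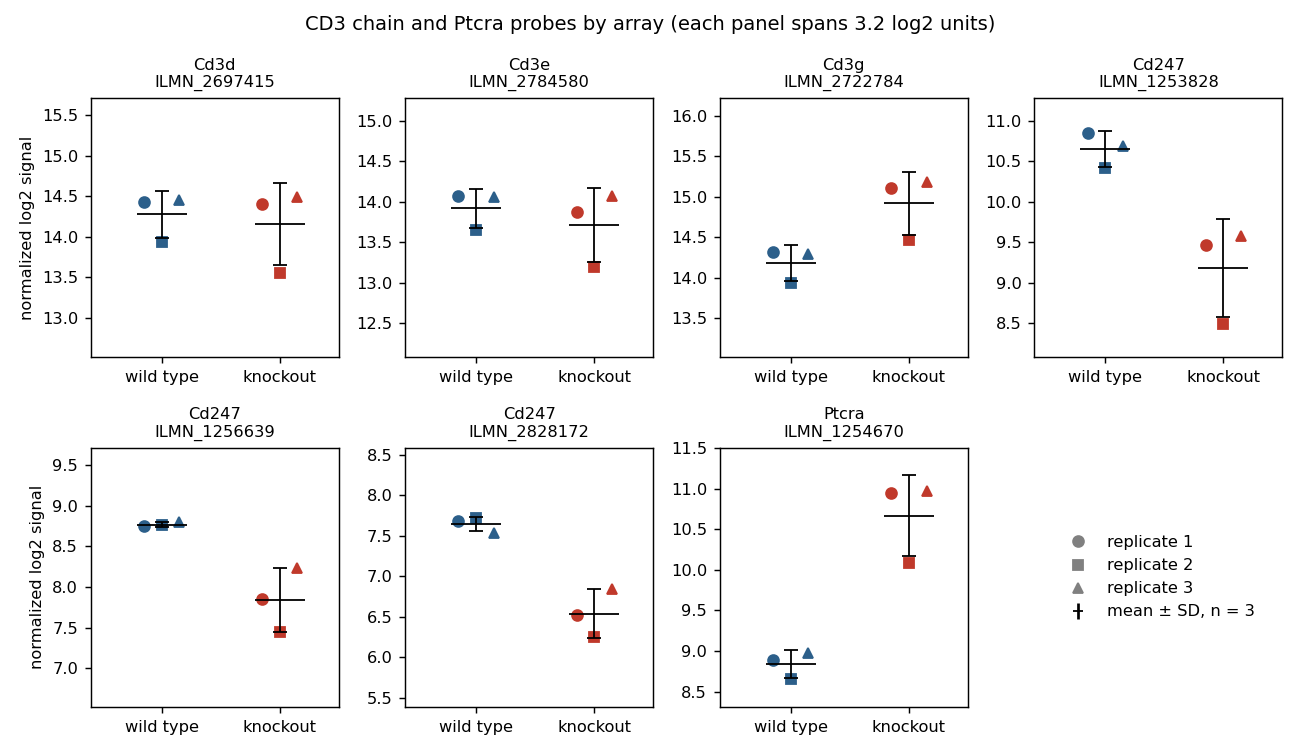
Normalized log2 signal of each of the 7 member probes on the 6 arrays, 3 wild type (blue) and 3 knockout (red), with the mean and SD of each genotype; marker shapes give the replicate number, and each panel has its own range of equal length because levels of different probes are not compared. The knockout points sit above the wild-type points for Ptcra and Cd3g, below them for the 3 Cd247 probes, and among them for Cd3d and Cd3e.

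Cd247 encodes the zeta chain, which carries more ITAM motifs than any other chain of the complex. Its brightest probe (ILMN_1253828) had levels of 9.47, 8.49 and 9.58 on the knockout arrays and of 10.85, 10.42 and 10.69 on the wild-type arrays. Linear signals were 908, 432 and 841 units against 2040, 1528 and 1871 units. All knockout arrays lay below all wild-type arrays, with knockout 2 lowest. The means of 9.18 ± 0.60 and 10.65 ± 0.22 (SD, n = 3 each) differed by −1.48 (SE 0.32, 95% interval −2.25 to −0.70, limma adjusted p = 0.0380).

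The remaining Cd247 probes moved the same way. Probe ILMN_1256639 read 7.85, 7.44 and 8.24 on the knockout arrays against 8.75, 8.76 and 8.80 on the wild-type arrays and differed by −0.93 (SE 0.22, limma adjusted p = 0.0499), 1.90-fold lower. Probe ILMN_2828172 gave 6.53, 6.25 and 6.85 against 7.68, 7.72 and 7.54 and differed by −1.11 (SE 0.19, limma adjusted p = 0.0221), 2.15-fold lower. Neither probe had an overlap between genotypes, and the wild-type arrays agreed to an SD of 0.03 and 0.09 while the knockout arrays spread to 0.40 and 0.30. In the 6 fits that each left out 1 array, the calls on these 3 probes held in 2, 1 and 3 fits in the order given, and the differences stayed between −1.68 and −0.73. The call on the brightest probe was lost when knockout 1, knockout 3, wild type 1 or wild type 3 was left out, with an adjusted p of up to 0.141. Of these fits, the call on ILMN_1256639 was kept only without knockout 3 (adjusted p = 0.0448), and that on ILMN_2828172 was lost when knockout 1, wild type 1 or wild type 3 was left out, with an adjusted p of up to 0.0987. With the Xist level as a covariate, the brightest probe and ILMN_1256639 missed the threshold (adjusted p = 0.0794 and 0.0806). With knockout 3 and wild type 2 left out, all 3 were called, at −1.79, −1.13 and −1.22.

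Ptcra had the largest difference of the 7 probes. Its probe (ILMN_1254670) reached 10.95, 10.09 and 10.97 on the knockout arrays and 8.89, 8.65 and 8.98 on the wild-type arrays. The lowest knockout array was 1.11 above the highest wild-type array. Linear signals were 2287, 1051 and 2013 units for the knockout, against 585, 547 and 645 units for the wild type. The means of 10.67 ± 0.50 and 8.84 ± 0.17 (SD, n = 3 each) differed by 1.83 (SE 0.28, 95% interval 1.16 to 2.50, limma adjusted p = 0.0147). The call was lost without knockout 1 (adjusted p = 0.0729), wild type 1 (0.0679) or wild type 3 (0.0679), with differences of 1.69, 1.85 and 1.90.

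Of the 7 probes, 4 were called, 1 higher and 3 lower, and the genotypes did not overlap for 5, against 33.7% of all tested probes. By gene, 1 of 5 was called higher (Ptcra) and 1 of 5 lower (Cd247), against 6.09% and 5.57% of the 9849 genes tested. The members were chosen with earlier results of these data known, so these shares describe the members and test nothing. The median difference over all tested genes was 0.01.

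**Figure D2:**
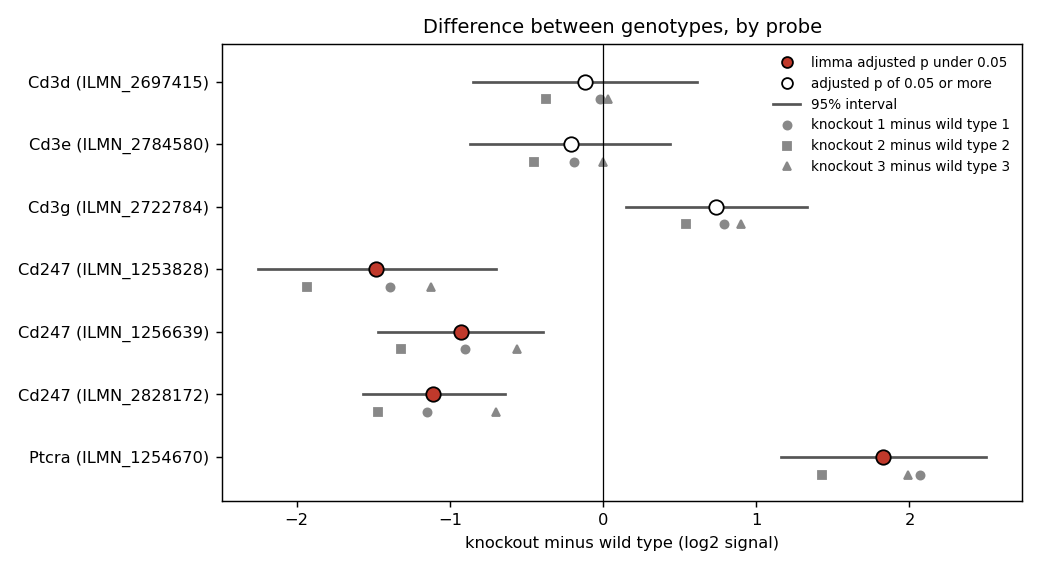
Difference between genotypes for each member probe (horizontal axis, knockout minus wild type in log2 signal); large circles are the limma estimates, red where the adjusted p is under 0.05, lines are 95% intervals, and small grey symbols are the differences between arrays of the same replicate number. The Cd247 probes lie to the left of 0 and Ptcra to the right; the Cd3g interval lies above 0 without passing the adjusted threshold, and the Cd3d and Cd3e intervals span 0.

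Within the knockout the 7 probes varied together, and within the wild type most of them did. Knockout 2 was the lowest knockout array for all 7 probes, by 0.29 to 0.69 below the genotype mean. It was also the lowest knockout array in the mean of every gene list below except neighbouring tissue, so this was not particular to the members. Thymic epithelial markers, for example, had a centred mean of −0.34 there, against 0.18 and 0.64 on knockout 1 and 3. The share of all tested probes lowest on knockout 2 was not counted. Wild type 2 was the lowest wild-type array for Cd3d (−0.34), Cd3e (−0.28), Cd3g (−0.25), the brightest Cd247 probe (−0.24) and Ptcra (−0.19), but not for the other Cd247 probes (−0.01 and 0.07). Among markers of tissue next to the thymus, the heart muscle genes (Actc1 and Myh6) and fat genes (Adipoq and Ucp1) were highest on the same arrays within each genotype. The parathyroid gene Pth was lowest there, at 4.51 on knockout 2 and 4.81 on wild type 2 against 6.33 to 10.68 on the other 4 arrays, and the thyroid gene Tg read 4.69 and 5.98, not the highest of either genotype. Actc1, Myh6 and Pth are named outside the naming rule, after their values were seen. The mean log2 level of the 6 genes, centred on 0, was 1.48 in knockout 2 and 1.62 in wild type 2, and 1.06, −2.21, −1.49 and −0.45 in knockout 1, knockout 3, wild type 1 and wild type 3. Of 6 tested genes of that list, 0 were higher by limma (also 0 at an unadjusted p under 0.05) and 1 was lower, Tg, the thyroglobulin gene, by at least 1.49-fold and undetected on the knockout arrays, and the list's summed signal ran from 4369 to 59974 units in the knockout and from 4344 to 51440 units in the wild type. Adipoq, a hormone of fat cells, read 14.21 and 13.87 on knockout 2 and wild type 2 and differed by 0.98 between genotypes (adjusted p = 0.576), and Ucp1, a gene of brown fat, by −0.21 (adjusted p = 0.963). With the neighbouring tissue level as a covariate, Cd3g differed by 0.77 and passed (limma adjusted p = 0.0391). Ptcra then differed by 1.86, the Cd247 probes by −1.44, −0.90 and −1.09, Cd3d by −0.08 and Cd3e by −0.18, and no other call on a member changed.

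**Figure D3:**
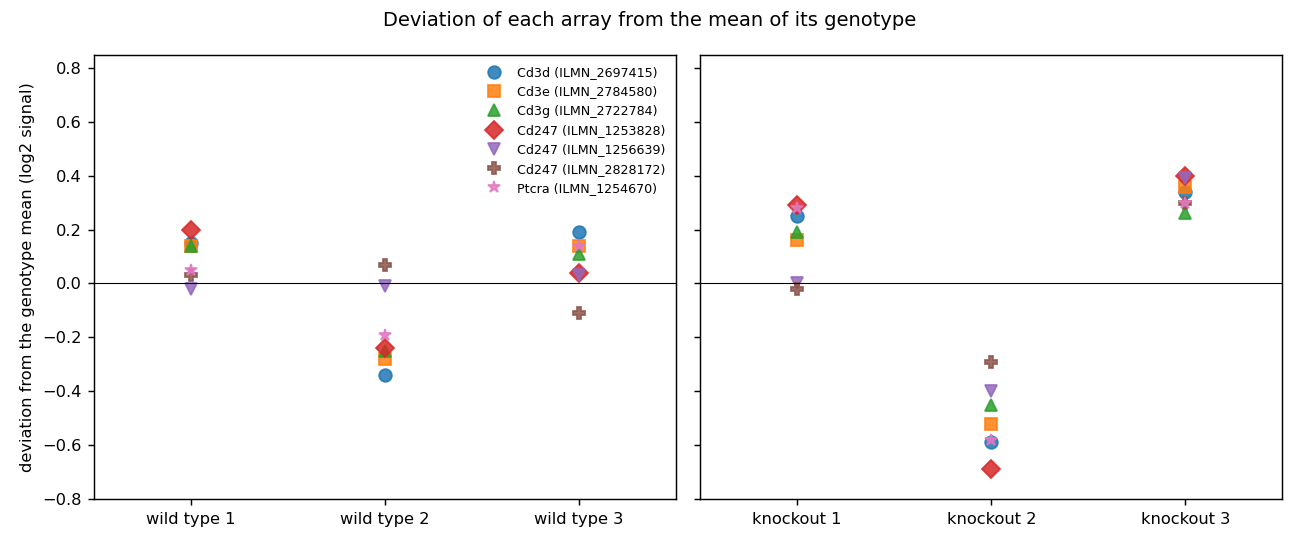
Deviation of each array from the mean of its genotype (vertical axis, log2 signal) for the 7 member probes, wild-type arrays on the left and knockout arrays on the right. All 7 probes are below 0 in knockout 2, and 5 of the 7 are at their lowest in wild type 2.

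Because a shift shared by all members cancels between 2 probes on the same array, the changes of the members were also set against each other within arrays. For each of the 10 pairs of genes, the difference between their log2 signals was taken on every array and compared between genotypes by an exact two-sided permutation test. With 20 assignments of 3 arrays against 3, the smallest p is 0.1, so no pair can reach 0.05. The change of Ptcra exceeded that of Cd3g by 1.09, that of Cd3d by 1.95, that of Cd3e by 2.04 and that of Cd247 by 3.31, which is 9.89-fold. The change of Cd3g exceeded that of Cd3d by 0.86, that of Cd3e by 0.96 and that of Cd247 by 2.22. All 7 of these pairs, and the pairs of Cd3d and Cd3e with Cd247 (1.36 and 1.26), had no overlap between genotypes and an exact p of 0.1 (0.111 adjusted over the 10 pairs). The 10 pairs reuse the same 5 genes, so they are not separate results. Of single tested probes 33.7% had no overlap, and the share for pairs of other probes was not computed.

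The pooled SD of a pair difference within a genotype was 0.06 to 0.15, against an SD of 0.22 to 0.60 for the same genes taken singly except Ptcra in the wild type (0.17). On knockout arrays 1 to 3 the centred difference between Cd3g and Cd3e was 0.50, 0.55 and 0.38, and on the wild-type arrays −0.48, −0.45 and −0.51. Relative to the transcript of epsilon, its partner in the heterodimer, that of gamma was higher on every knockout array than on any wild-type array. Cd3d and Cd3e were the one pair that overlapped, at a difference of 0.09 between their changes (exact permutation p = 0.2). Background correction bears on the size of these values: without it the Ptcra and Cd247 changes were 2.89 apart.

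**Figure D4:**
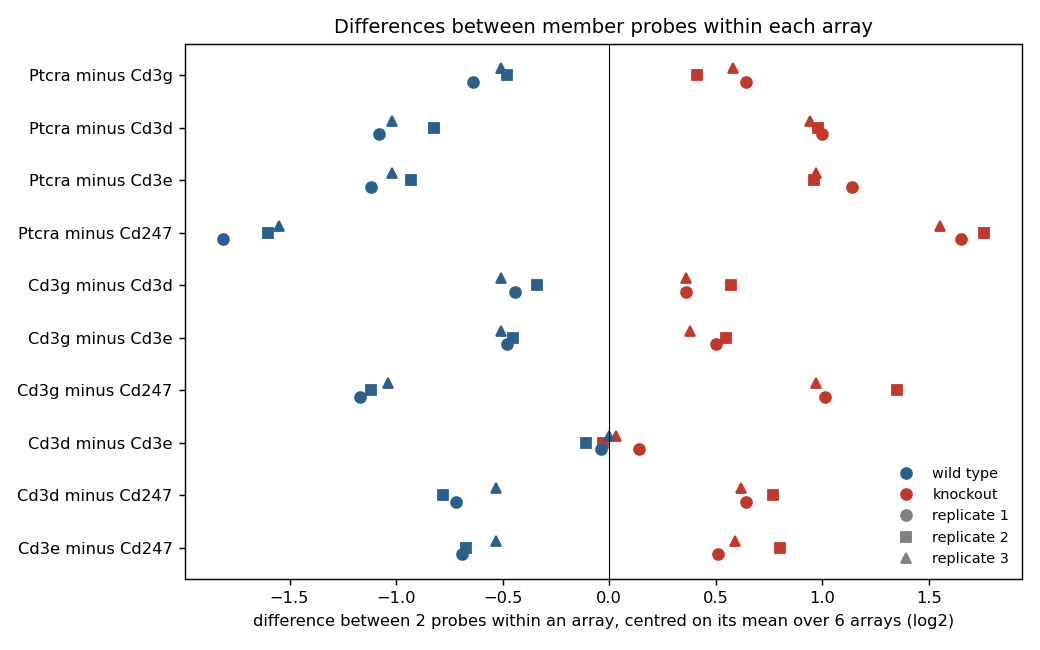
Difference between the log2 signals of 2 members within each array, centred on its mean over the 6 arrays (horizontal axis), for the 10 pairs; blue is wild type, red is knockout and shapes give the replicate number. In 9 of the 10 pairs the genotypes lie apart, and Cd3d minus Cd3e stays near 0 in both. The pairs reuse the same genes, and the share for pairs of other probes was not computed.

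Likeness between profiles was measured as the root mean square difference between 2 centred log2 profiles over the 6 arrays, a description over arrays that share genotype and array-wide shifts. Among the members Cd3d and Cd3e were closest (0.07), then Cd3g with Cd3d (0.44) and with Cd3e (0.48), and Ptcra and Cd247 were farthest apart (1.66). The genes nearest to Ptcra were Rhbdl3, a rhomboid-like protein (0.09, difference between genotypes 1.82), Plac8 (0.11, 1.69) and Susd4, a complement regulator (0.12, 1.69). Nearest to Cd3g were H2-DMa, a chaperone chain of class II peptide loading (0.04), Fundc1, a mitophagy receptor (0.06), and Tbc1d2b (0.06), with differences of 0.79, 0.73 and 0.77, none of them called by limma. Nearest to Cd247 were Lef1, a transcription factor of thymocytes (0.08, −1.40), Espl1, the separase of sister chromatids (0.08, −1.42), and Cd27, a costimulatory receptor (0.09, −1.57), all called lower. Nearest to Cd3e were Dntt, the template-independent DNA polymerase of receptor joining (0.04, −0.23), Cbx2 (0.04) and Rps15 (0.04), and nearest to Cd3d were Atp13a2, Npm3-ps1 and Smap2 (0.05 each).

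Cd3g, Cd3d and Cd3e lie next to each other on chromosome 9, in that order, with no annotated gene between them, and their differences were 0.74, −0.12 and −0.21. Beyond Cd3e, Mpzl2, an adhesion protein gene, was called higher in the knockout by at least 1.88-fold (limma adjusted p = 0.0183). It was detected on 3 of 3 knockout arrays and on 0 of 3 wild-type arrays, so only a bound can be given, which sets the knockout mean against the lowest detected signal of the wild-type arrays. Ube4a, beyond Cd3g, differed by 0.33 (adjusted p = 0.506). The nearest tested genes beside Cd247 on chromosome 1 were Rcsd1 (−0.78, adjusted p = 0.233) and Tada1 (−0.08, adjusted p = 0.856). Those beside Ptcra on chromosome 17 were Cnpy3 (0.05, adjusted p = 0.893) and 2310039H08Rik (0.48, adjusted p = 0.168).

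The other parts of the receptor machinery were counted by lists, to be read against the 6.09% of all tested genes called higher and 5.57% called lower. Among surface co-receptors and adhesion receptors of the T cell receptor, 6 of 6 tested genes were lower (Cd8a was not tested), with a median difference of −4.39. Cd8b1, the CD8 beta chain, read 7.58, 7.01 and 8.81 on the knockout arrays against 15.25, 14.96 and 15.15 on the wild-type arrays and differed by −7.32 (limma adjusted p = 0.00141). Cd5, an inhibitory co-receptor, differed by −5.40 and Cd4 by −4.65, and they were detected on 2 and on 1 of the 3 knockout arrays. These differences were all larger than that of any CD3 chain.

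Kinases and adaptors that act next to the receptor were lower in 6 of 19 tested genes and higher in 0 (at an unadjusted p under 0.05, 12 and 0), with a median of −0.75, and 12 were lower with the replicate block. Sit1, a transmembrane adaptor, differed by −3.85 (limma adjusted p = 0.00445), Zap70, the kinase that binds the phosphorylated zeta chain, by −2.93 (0.00618), and the adaptor Sh2d2a by −1.62 (0.0424). Vav1, a guanine nucleotide exchange factor, differed by −0.86 (0.128) and Csk, which restrains Lck, by −0.65 (0.172). The Zap70 arrays read 10.06, 9.22 and 9.85 for the knockout against 12.87, 12.16 and 12.90 for the wild type, with no overlap.

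For assembly and turnover of the receptor, 2 of 5 tested genes were lower, with a median of −1.04, and 4 were lower with the replicate block. Both that were called encode proteins known to lower the receptor at the surface: Sla, which targets the zeta chain for degradation, differed by −2.63 (limma adjusted p = 0.0119), and Laptm5, a lysosomal protein, had a mean level of 14.13 in the knockout and 15.13 in the wild type (0.0383). Ubash3a, a suppressor of receptor signalling, differed by −1.19 (0.0732), and Calr, a chaperone of the endoplasmic reticulum, by 0.31 (0.377).

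Transcription regulators of Ptcra and the CD3 genes went both ways. Of 13 tested, 3 were higher and 2 lower (4 and 4 with the replicate block), with a median of −0.46. Hes1, a Notch target, differed by 2.46 (limma adjusted p = 0.00546), Notch3 by 2.12 (0.00434), and Ikzf1, the Ikaros gene, by −1.72 (0.0291). Ets1 differed by −0.97 (0.0580) and Bcl11b by −0.44 (0.231). The E protein gene Tcf12 (HEB) differed by −0.66 (0.107), and Id3, an inhibitor of E proteins, by −0.93 (0.163). Tcf12 and Id3 are named here for their bearing on the E-boxes, chosen after their values were seen.

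Signalling chains of other receptors, built with ITAM or DAP10 motifs, were lower in 1 of 5 tested genes and higher in 0 (2 and 0 at an unadjusted p under 0.05), with a median of −0.54. The gene called was Cd79a of the B cell receptor, at least 15.8-fold lower (limma adjusted p = 0.000216) and detected on 0 of 3 knockout arrays. Fcer1g, the Fc receptor gamma chain, which can pair with zeta, differed by −0.06 (0.852), and Cd79b by −0.54 (0.212).

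**Figure D5:**
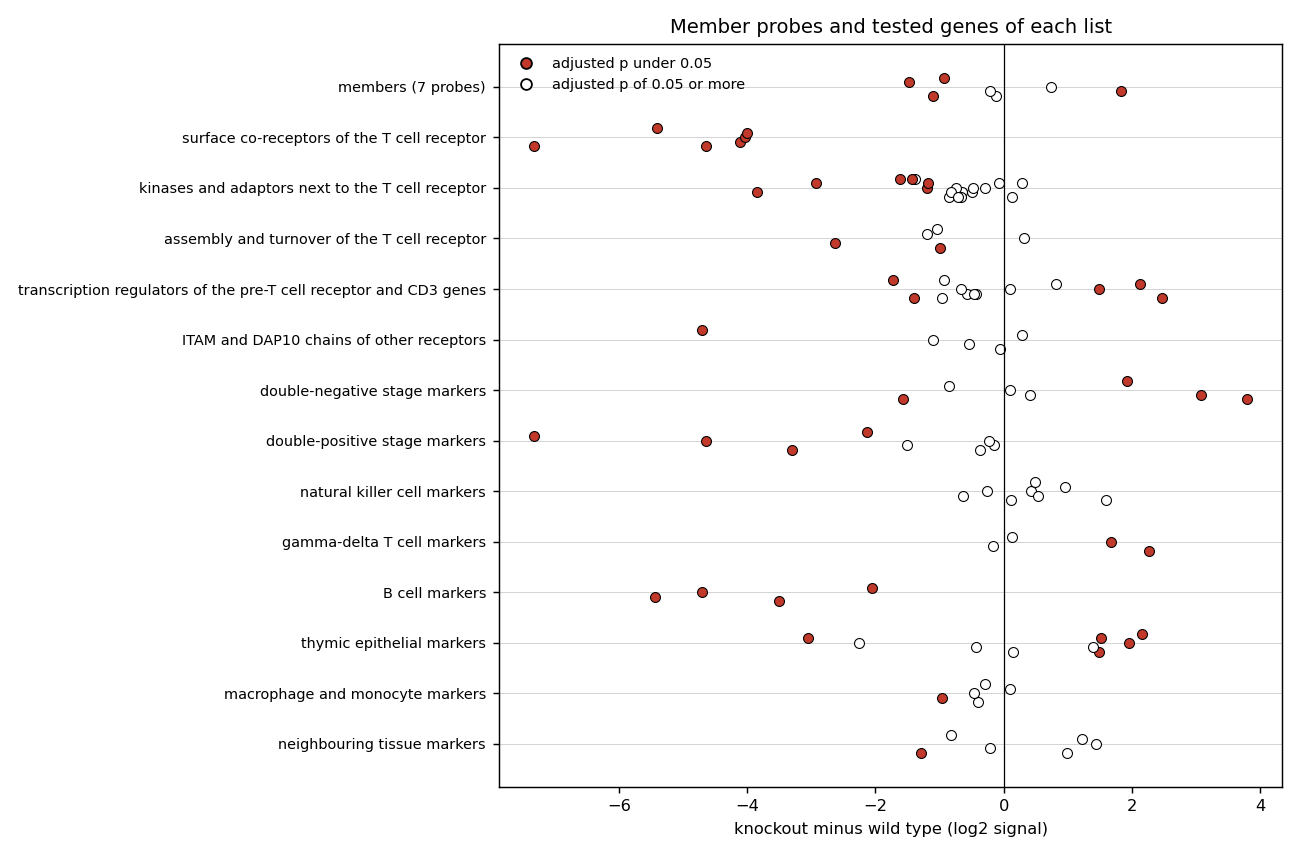
Difference between genotypes (horizontal axis, knockout minus wild type in log2 signal) for the 7 member probes and for each tested gene of 13 lists, red where the limma adjusted p is under 0.05; points are spread vertically for legibility, and genes undetected in a genotype are drawn at their measured difference. All 6 co-receptor genes lie below −4.00 or at it, below the lowest member at −1.48.

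Markers of cell stages and cell types moved with genotype beside the members. Of 7 double-negative markers 3 were higher and 1 lower (median 0.41). The higher ones were Il2ra, the interleukin-2 receptor alpha chain, at 3.79, Dtx1, a Notch target, at 3.07, and Cpa3 at 1.92. The lower one was Cd27 (−1.57, limma adjusted p = 0.0426), while Il7r (0.41, 0.641) and Lmo2 (0.09, 0.932) did not pass. The list's summed signal was 11737 to 17335 units in the knockout and 17938 to 23619 in the wild type. Bright genes weigh most in that sum, and the brightest, Cd27, had a mean level of 12.48 in the knockout and 14.05 in the wild type. The mean of the centred log2 levels, where each gene counts alike, went the other way. It was 0.52, 0.36 and 0.59 on knockout arrays 1 to 3 and −0.41, −0.52 and −0.54 on wild-type arrays 1 to 3. Of 8 double-positive markers 4 were lower and 0 higher (5 and 0 at an unadjusted p under 0.05, median −1.82), among them Slamf1 at −3.30, while Arpp21 (−0.37, adjusted p = 0.372) and Aqp11 (−0.15, 0.806) did not pass. Cd8b1 and Cd4 are among these 4 and were counted in the co-receptor list too. The gene lower only at an unadjusted p was Rag2, itself a targeted gene (−1.51, limma adjusted p = 0.0579). The part of these stages in the members' differences was not tested.

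Marker lists of other lymphocytes that use CD3 or zeta chains were read the same way. Natural killer cells carry the zeta chain without a T cell receptor, and gamma-delta T cells use the CD3 complex. Gamma-delta T cells also need joined receptor genes, which are not made without Rag2. Which cells carried the higher markers of the gamma-delta list was not tested. Of 8 tested natural killer markers, 0 passed limma in either direction (1 higher and 1 lower at an unadjusted p under 0.05), with a median of 0.45. The lower one was Prf1, itself a targeted gene (−0.64, limma adjusted p = 0.0866). The list's summed signal was 4103 to 8590 units in the knockout and 2331 to 4724 in the wild type. Nkg7, a granule protein, differed by 1.60 (adjusted p = 0.102), and Eomes, Gzma, Gzmb and Ncr1 did not pass the detection filter. Of 4 tested gamma-delta markers 2 were higher: Cd163l1, a scavenger receptor, by 2.27 (adjusted p = 0.0391) and Sox13, a transcription factor, by 1.67 (0.0129). Blk (−0.16, adjusted p = 0.877) and Il1r1 (0.13, 0.756) did not pass, the list's median was 0.90, and its summed signal was 2059 to 6452 units in the knockout and 1198 to 1660 in the wild type. The part of natural killer cells, or of the cells that carry the gamma-delta markers, in the CD3 signals was not tested.

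B cell markers were lower in 4 of 4 tested genes (median −4.10), with summed signals of 175 to 250 units in the knockout and 2849 to 3679 in the wild type. The knockout sums include Cd79a and Fcmr, which were detected on no knockout array. Cd79a was already counted with the chains of other receptors. Fcmr, an Fc receptor, was at least 27.6-fold lower and undetected on the knockout arrays, and Pou2af1, a B cell coactivator, differed by −3.50. Of 9 thymic epithelial markers 4 were higher and 1 lower (median 1.39), with Prss16, a cortical protease, at 2.15, Krt18 at 1.95 and the medullary keratin Krt14 at −3.06, while Krt8 (1.39, limma adjusted p = 0.0590) and Krt5 (0.14, 0.908) did not pass. Their summed signal was 44797 to 66313 units in the knockout and 14097 to 31431 in the wild type. Macrophage and monocyte markers were lower in 1 of 5 tested genes (Lyz2, −0.97, adjusted p = 0.0413), with a median of −0.40 and C1qb and C1qa at −0.40 and −0.46. Their summed signal was 6400 to 6985 units in the knockout and 7626 to 11046 in the wild type. The part of these cell types in the members' differences was not tested.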

How the data were processed

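Thymus RNA was amplified to biotin-labelled cRNA and hybridised to 1-colour bead arrays, per the labels' protocols. The deposited signal intensities are linear and not normalized between arrays, per the file headers, with a detection p-value beside each, deposited by the authors, and the submitters' processing notes name GenomeStudio 2011.1. A second deposited table holds log2 values by the authors; its scale was found from the values, which matched quantile normalized log2 signals to within 5e-07, with every column median at 7.48. Its centring is on no gene and its direction is that of the signal. No column of sample values was left unused (0).

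Here, neqc (offset 16) took the background from the detection p-values, then quantile normalized and log2 transformed the intensities; it is part of limma 3.58.1 in R 4.3.3. Probes detected at p under 0.05 on at least 3 of 6 arrays (14097 of 25697) were fitted with lmFit and eBayes on genotype, with Benjamini-Hochberg adjustment over all of them at a threshold of 0.05. For genes of the lists, and for Cd247 in pairs and profiles, the tested probe of highest mean stood for the gene. Of all probes, 23978 carried 1 gene symbol, 1719 none and 0 several in the platform annotation. Sequences came from RefSeq promoter windows, matched by symbol for 5 of 5 members. The scripts were tested on simulated data. Exact tests, tables and figures used Python 3.11.15, numpy 2.4.6, scipy 1.17.1, pandas 2.3.3 and matplotlib 3.10.9.

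The members and lists were chosen with earlier results of these data known. Genes were named by a rule: all member probes, per list at most 3 called genes, by size of change, and at most 2 others, by mean level, per member the 3 nearest profiles, and the nearest tested gene on each side. For a probe undetected on every array of 1 genotype a bound is given, set by the lowest detected signal of each such array or the probe's own if higher.

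Replicate numbers come from the sample titles, and no label says what a number marks. Deviations from the genotype means of the same-numbered arrays correlated at 0.1038, 0.7500 and 0.5594, each over 0.1, so the numbers were taken to pair the arrays in the replicate block. Knockout 3 correlated more with wild type 1 (0.7271), however, and knockout 1 slightly more with wild type 3 (0.1081). Among same-numbered arrays, only those numbered 2 were each other's best match. Knockout 3 and wild type 1 were also each other's best match, across numbers. The pairing is therefore uncertain, and the main fit does not use it. Alternatives were median centring, an offset of 50, no background correction, no detection filter, the authors' log2 values, the replicate block, a stricter detection filter (all 6 arrays at 0.01), trend and robust moderation, array weights, the Xist level as a covariate, knockout 3 and wild type 2 left out, the mean of a gene's probes for the lists, and each array left out. Leaving out knockout 2 with wild type 2, and the neighbouring tissue level as a covariate, were chosen after seeing the data. Precision is limited by the number of arrays.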

Additional observations from a re-analysis of the deposited data

How the results depend on the processing

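Ptcra kept its direction and its call under all 13 alternatives other than single left-out arrays, and so did the Cd247 probe ILMN_2828172. The authors' log2 values match those without background correction to within 5e-07, so these alternatives are the same fit and count once. Cd247 probe ILMN_1253828 missed the threshold with median centring (−1.45, adjusted p = 0.0569), no detection filter (−1.48, 0.0574) and the Xist covariate (−1.48, 0.0794). Probe ILMN_1256639 missed it with the same 3 (−0.87, 0.0840; −0.93, 0.0642; −0.93, 0.0806) and with trend and robust moderation (−0.93, 0.0523). Cd3g passed with the replicate block (0.74, 0.0251), array weights (0.81, 0.00167), knockout 2 and wild type 2 left out (0.84, 0.0125) and the neighbouring tissue covariate (0.77, 0.0391). It did not pass under the other 9 alternatives, among them the Xist covariate (0.74, 0.177). Cd3d turned to 0.01 with knockout 2 and wild type 2 left out. The causes were not tested, except that no filter adjusts over more probes.

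With each array left out in turn, the differences ran from −0.29 to 0.18 for Cd3d, −0.39 to 0.05 for Cd3e, 0.61 to 0.97 for Cd3g, −1.68 to −1.13, −1.13 to −0.73 and −1.26 to −0.96 for the Cd247 probes ILMN_1253828, ILMN_1256639 and ILMN_2828172, and 1.68 to 2.12 for Ptcra. Cd3d (0.18) and Cd3e (0.05) turned without knockout 2. In these fits the genes called lower numbered 2 to 6 kinases and adaptors, 0 to 3 of assembly and turnover, 0 to 3 regulators and 0 to 2 double-negative markers, with fewer arrays tested. Double-negative markers called higher numbered 2 to 3.

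The replicate block changed no other call on a member. With it the genes called lower numbered 12 kinases and adaptors, 4 of assembly and turnover and 4 regulators. With array weights the counts were 16, 4 and 7, with the Xist covariate 2, 1 and 0, and with knockout 2 and wild type 2 left out 10, 4 and 4. The neighbouring tissue covariate gave 4 of assembly and turnover, and leaving out knockout 3 and wild type 2 gave 4 regulators. Double-negative markers called lower numbered 0 with median centring, no filter or the Xist covariate, and 2 with array weights or either pair of arrays left out. Those called higher numbered 2 with the replicate block or no filter. Co-receptors called lower numbered 4 with detection required on all 6 arrays at 0.01, a filter that Cd4 and Cd5 do not pass, and 6 under every other alternative run.

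Both with no background correction and with the authors' log2 values, the change of Ptcra exceeded that of Cd3g by 0.86, Cd3d by 1.71, Cd3e by 1.81 and Cd247 by 2.89 (3.18 at an offset of 50), and Cd247 was exceeded by Cd3g by 2.03, Cd3d by 1.17 and Cd3e by 1.08. These sizes therefore depend on the background step, and the part of signals near background was not tested.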
